A study of Mus musculus with 6 samples.

Results

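The 33 genes described here cover glucose uptake, glycolysis, the fate of pyruvate with lactate export, and the pentose phosphate pathway. They were chosen by name as textbook members of these routes, with earlier results of these data known. Each was taken as the row of the deposited table that carries its symbol. All 33 were found among the 21929 genes of the table, and Aldoa, whose symbol stood on 2 rows, was taken from the row with the higher mean. The measurements are RNA-seq expression values of L929 cells, an established mouse fibroblast line, after co-culture with tumour cells. The Biotin-positive group holds 3 libraries of L929 cells that had interacted with tumour cells, which the labels name only by the abbreviation MFCSTCL. The Biotin-negative group holds 3 libraries of L929 cells that had not. Both groups came from co-culture and share 1 batch label, so cells grown without tumour cells are not among the groups compared. The study's title ties the comparison to the transcriptional coactivator YAP and the protease CTRB1 in gastric cancer.

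Glycolysis splits glucose into pyruvate, spending ATP in its upper steps, down to aldolase, and regaining ATP and NADH in its lower steps. Proliferating fibroblasts in culture are known for reducing much of this pyruvate to lactate, which leaves the cell together with a proton through monocarboxylate transporters. The pentose phosphate pathway branches off at glucose 6-phosphate. Its oxidative arm makes NADPH, and its non-oxidative arm exchanges ribose 5-phosphate with the sugars of glycolysis.

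Values are in FPKM, fragments scaled for transcript length and library size, so levels of different genes can be set side by side per length. They are given as mean ± SD over the 3 libraries of a group, with the Biotin-negative group ahead of the Biotin-positive one. Per-library values follow the replicate numbers 1 to 3. Log2 differences are Biotin-positive minus Biotin-negative on the log2(FPKM + 1) scale, which understates the change of low genes, and are followed by their standard error (SE). Adjusted p-values come from limma, fitted over 11029 genes with Benjamini-Hochberg adjustment, and a gene passed at 0.05. A gene that passed is said to have risen where the Biotin-positive group was higher and to have fallen where it was lower. FPKM sums per library lay between 337771 and 356681, and the sequencing depth behind them is unknown. Separate cultures are not stated for the 3 libraries of either group. The p-values therefore cover the spread among 6 libraries alone, and this spread may be technical.

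In Biotin-positive cells the lower steps of glycolysis, from triose phosphate isomerase to lactate dehydrogenase A, stood higher for most genes. Eno2 stood lower, and the Gapdh groups overlapped. The main glucose importer, the liver-type phosphofructokinase and the more abundant lactate transporter gene, Slc16a1, stood lower. Of the 33 genes 31 reached testing, and 25 of them passed, 19 higher and 6 lower. Over all tested genes 73.9% passed, 37.8% higher and 36.1% lower, against 80.6%, 61.3% and 19.4% of the tested members. The median log2 difference of the tested members was 0.22, beside 0.01 for all tested genes. No overlap between the groups was seen for 27 tested members (87.1%), beside 76.9% of all tested genes. Passing with a log2 difference of at least 1 in either direction was seen for 2 of the 31 tested members, Gapdh and Eno2. Of the 11029 tested genes 959 (8.7%) did so. The Gapdh call changed in 6 of 16 alternatives, and near-identical copies of Gapdh make its level uncertain. The summed FPKM of the 33 genes made up 0.858 to 0.887% of a library's total in the Biotin-negative group and 1.16% in each Biotin-positive library. In bulk RNA a change in the share of cells that express a gene and a change in RNA per cell cannot be told apart.

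Markers of other cells were measured beside these genes. Of 15 epithelial markers, 2 reached testing and both were higher, Krt7 from 0.236 to 24.7 FPKM and Krt8 from 0.0362 to 20.8 FPKM. The summed level of the 15 ranged from 0.704 to 0.784 FPKM in Biotin-negative and from 45.2 to 47.7 FPKM in Biotin-positive libraries. The other 13, among them Epcam and Cdh1, stayed under 0.190 FPKM in every library, and Krt20 was at 0. The 9 gastric epithelial markers summed to at most 0.835 FPKM in any library, with Tff1, Tff2 and Gkn2 at 0. The part of tumour cell RNA in the differences below was not tested. Of 10 fibroblast markers 7 reached testing, and Thy1, Lum and Dcn stayed under 1 FPKM in all 6 libraries. Of the 7, Vim rose from 658 to 1418 FPKM and S100a4 from 539 to 722 FPKM, while the other 5 fell, Col1a1 from 167 to 90.3 FPKM, Col1a2 from 370.0 to 179.9 FPKM, Col3a1 from 208 to 58.2 FPKM, Pdgfra from 20.5 to 11.8 FPKM and Pdgfrb from 33.9 to 14.4 FPKM. Vim and S100a4 make up most of the list's FPKM, and the summed level of the 10 ranged from 1969 to 2019 FPKM in Biotin-negative and from 2448 to 2519 FPKM in Biotin-positive libraries. Of 5 leukocyte markers only Cd68 reached testing, and of 4 endothelial markers none did.

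**Figure D1:**
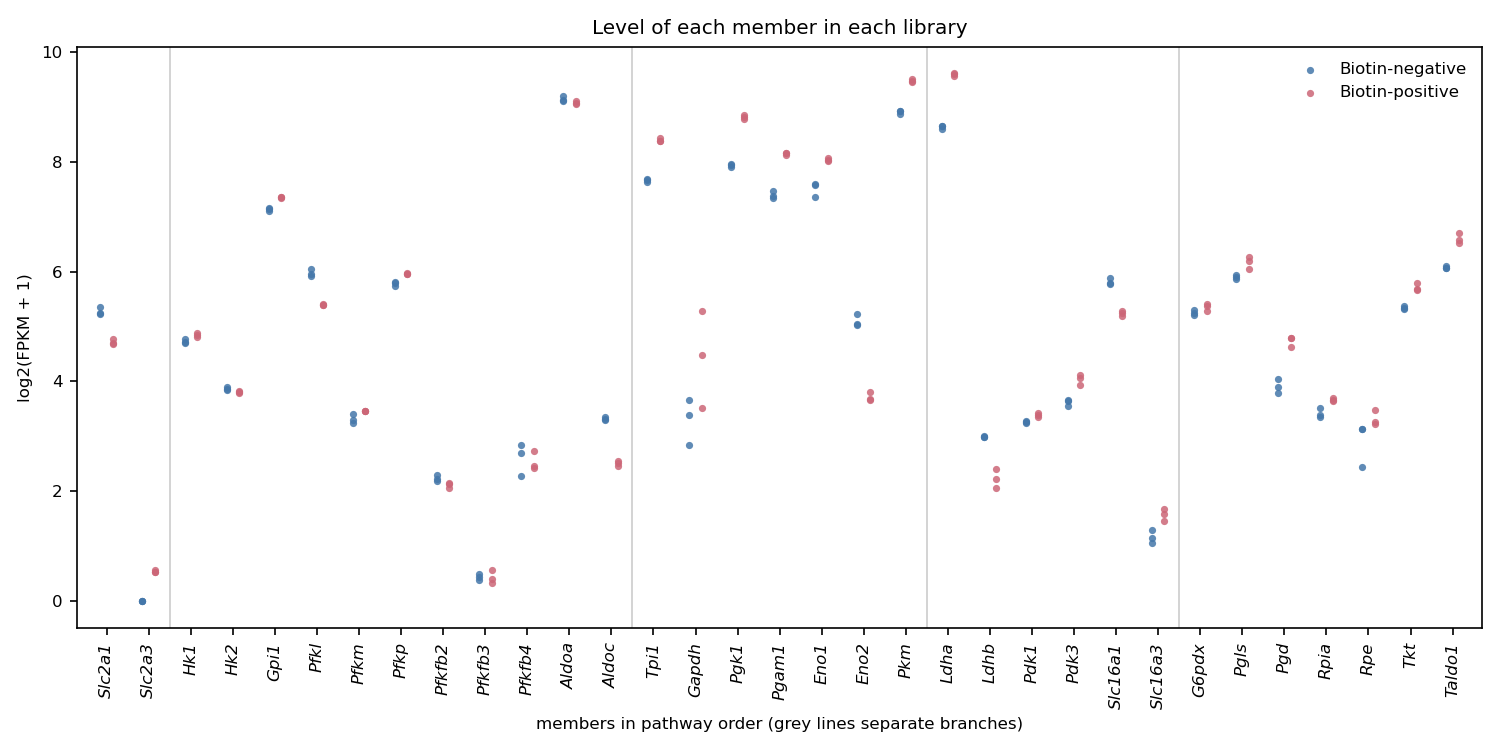
Level of each of the 33 genes in each library as log2(FPKM + 1), with the genes in pathway order on the horizontal axis and 1 point per library, blue for Biotin-negative and red for Biotin-positive. The points of a group lie close together for most genes, with the widest scatter at Gapdh, and from Tpi1 to Ldha the red points stand above the blue ones except at Eno2, where they stand below, and at Gapdh, where the groups overlap.

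Glucose enters fibroblasts mainly through GLUT1, the facilitative transporter encoded by Slc2a1. Slc2a1 (ENSMUSG00000028645, chromosome 4, 119108711 to 119137983 on GRCm38) stood at 39.9, 36.3 and 37.1 FPKM in Biotin-negative cells, against 24.6, 24.8 and 26.2 FPKM in Biotin-positive cells. Every Biotin-positive library lay below every Biotin-negative one, and the mean fell from 37.8 ± 1.87 to 25.2 ± 0.876 FPKM (log2 difference -0.56 with SE 0.0452, limma adjusted p = 6.4e-06). Slc2a3, the gene of the high-affinity neuronal-type transporter GLUT3, had values of 0.446, 0.489 and 0.445 FPKM in Biotin-positive cells and is given as 0 by the table for each Biotin-negative library. These values were too low to be tested. Summed, the 2 importers stood at 37.8 ± 1.87 and 25.7 ± 0.867 FPKM, with no overlap between the groups.

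The upper steps of glycolysis showed differences that went both ways. Of their 11 genes 10 were tested, of which 4 rose (40%), 2 fell (20%) and 4 did not pass, beside 37.8% higher and 36.1% lower of all tested genes. Their median log2 difference was -0.06. Hexokinase traps glucose in the cell as glucose 6-phosphate. Its ubiquitous form Hk1 stood at 25.3, 24.8 and 26.5 against 27.9, 26.9 and 28.4 FPKM (log2 difference 0.12 with SE 0.0397, limma adjusted p = 0.0264). Hk2, the inducible form, did not pass, at 13.6 ± 0.307 and 13.0 ± 0.231 FPKM (limma adjusted p = 0.196). The hexokinase sum, 39.2 ± 0.818 and 40.8 ± 0.953 FPKM, overlapped between the groups. Gpi1, which turns glucose 6-phosphate into fructose 6-phosphate, rose from 139 ± 3.24 to 163 ± 0.818 FPKM (log2 difference 0.22 with SE 0.0281, limma adjusted p = 0.000114).

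Phosphofructokinase catalyses the committed step of glycolysis, and its 3 subunit genes did not move together. Pfkl, the liver-type subunit (ENSMUSG00000020277, chromosome 10, 77986947 to 78010083 on GRCm38), stood at 65.0, 59.6 and 61.2 FPKM in Biotin-negative and at 41.2, 41.0 and 41.0 FPKM in Biotin-positive libraries. It fell without overlap (log2 difference -0.58 with SE 0.0376, limma adjusted p = 1.72e-06). Pfkp, the platelet-type subunit, rose from 54.1 ± 1.52 to 61.2 ± 0.359 FPKM (log2 difference 0.18, limma adjusted p = 0.000959). Pfkm, the muscle-type subunit, rose from 8.53, 9.59 and 8.88 FPKM to between 10.00 and 10.05 FPKM (log2 difference 0.14, limma adjusted p = 0.0366). The most abundant subunit transcript was thus Pfkl in each Biotin-negative library and Pfkp in each Biotin-positive one. The sum of the 3 stood at 125 ± 3.61 and 112 ± 0.510 FPKM, without overlap. The small rises here changed with the scaling. With equal FPKM sums per library Hk1 had a limma adjusted p of 0.238 and Pfkm of 0.179, and under quantile normalization Pfkp had a log2 difference of 0.07 with a limma adjusted p of 0.0561 and Gpi1 one of 0.11 with a limma adjusted p of 0.00638. Hk1 also did not pass without Biotin-negative replicate 1 or 2 or Biotin-positive replicate 1 or 3 (limma adjusted p of 0.0653, 0.0738, 0.068 and 0.0862). Pfkm did not pass without Biotin-negative replicate 1 or 3 or any 1 of the Biotin-positive replicates (limma adjusted p of 0.11, 0.0901, 0.0838, 0.0808 and 0.0806).

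The bifunctional enzymes of the PFKFB family make and break fructose 2,6-bisphosphate, the strongest allosteric activator of phosphofructokinase. None of the 3 family genes among the 33 passed. Pfkfb1, the fourth gene of the family and not one of the 33, rose from 0.621 ± 0.184 to 3.66 ± 0.626 FPKM without overlap (log2 difference 1.52 with SE 0.116, limma adjusted p = 4.5e-06), and is named after its values were seen. Pfkfb4 stood at 5.47, 3.87 and 6.15 against 4.37, 4.53 and 5.63 FPKM, with overlapping groups (log2 difference -0.07, limma adjusted p = 0.693). The log2 difference was -0.23 without Biotin-negative replicate 2 and 0.05 without Biotin-negative replicate 3. Pfkfb2 stood at 3.71 ± 0.166 and 3.33 ± 0.147 FPKM (limma adjusted p = 0.0927), and Pfkfb3, between 0.264 and 0.484 FPKM in all 6 libraries, was too low to be tested. Aldolase, which cleaves fructose 1,6-bisphosphate, was led by Aldoa, the most abundant of the 33 transcripts in Biotin-negative cells. Aldoa stood at 586, 549 and 557 against 551, 533 and 537 FPKM, with overlapping groups, and did not pass (log2 difference -0.06 with SE 0.0331, limma adjusted p = 0.122). Under quantile normalization it was called lower (log2 difference -0.19, limma adjusted p = 0.00392), as with equal sums per library (log2 difference -0.12, limma adjusted p = 0.00493). Aldoc, the brain-type form, fell from 9.01 ± 0.209 to 4.70 ± 0.172 FPKM without overlap (log2 difference -0.81 with SE 0.051, limma adjusted p = 1.39e-06).

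From triose phosphate isomerase onward the picture was one of rises. Of the 7 lower glycolytic genes 6 rose (85.7%) and 1 fell (14.3%), beside 37.8% and 36.1% of all tested genes. Gapdh, counted among the 6, had overlapping groups. Their median log2 difference was 0.74. Tpi1, which interconverts the triose phosphates (ENSMUSG00000023456), stood at 205, 197 and 201 FPKM in Biotin-negative cells, against 334, 344 and 331 FPKM in Biotin-positive cells, a ratio of 1.67 (log2 difference 0.74 with SE 0.029, limma adjusted p = 9.26e-08). Pgk1, a phosphoglycerate kinase that makes ATP (ENSMUSG00000062070, chromosome X, 106187100 to 106203699 on GRCm38), stood at 246, 237 and 245 against 451, 461 and 440.0 FPKM. Its ratio of 1.86 was the highest among lower glycolytic genes whose groups did not overlap (log2 difference 0.89 with SE 0.0299, limma adjusted p = 4.17e-08). Pgam1, the mutase that follows, rose from 167 ± 8.42 to 282 ± 5.07 FPKM (log2 difference 0.75 with SE 0.039, limma adjusted p = 4.51e-07). Pkm, the pyruvate kinase gene that closes glycolysis, stood at 487, 469 and 485 against 723, 707 and 702 FPKM (log2 difference 0.56 with SE 0.0288, limma adjusted p = 4.03e-07). In none of these 4 genes did the groups overlap. Gene-level values do not tell apart the M1 and M2 splice forms of Pkm.

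The enolase genes parted. Eno1, the ubiquitous alpha enolase, stood at 193, 190.5 and 163 against 258, 259 and 268 FPKM and rose (log2 difference 0.53 with SE 0.0607, limma adjusted p = 6.3e-05). Eno2, the gamma or neuron-specific enolase (ENSMUSG00000004267, chromosome 6, 124760053 to 124769673 on GRCm38), stood at 36.7, 31.5 and 31.9 FPKM in Biotin-negative and at 13.0, 11.6 and 11.9 FPKM in Biotin-positive libraries. Its fall to a ratio of 0.364 was the largest among the tested members (log2 difference -1.38 with SE 0.067, limma adjusted p = 3.04e-07). Eno2 lies 40912 bases from Tpi1 on chromosome 6 (124810586 to 124814296), with Lrrc23 as the only gene of the table wholly between them. Another gene of the table, Spsb2, overlaps Tpi1. Eno2 and Tpi1 moved in opposite directions, Eno2 down and Tpi1 up.

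Gapdh, the dehydrogenase that makes the NADH of glycolysis and a common reference gene, had the largest SE of the 31 tested members. It stood at 6.15, 9.41 and 11.7 FPKM in Biotin-negative and at 10.4, 21.2 and 37.9 FPKM in Biotin-positive libraries, far below Tpi1 and Pgk1, its neighbours in the pathway. The groups overlapped, and the SE of its log2 difference was larger than that of 99.8% of the tested genes. The log2 difference of 1.13 (SE 0.396) passed with a limma adjusted p of 0.0295. It did not pass without Biotin-positive replicate 3, where it was 0.70 (limma adjusted p = 0.0879), without Biotin-positive replicate 2 (limma adjusted p = 0.0734), without Biotin-negative replicate 1 (limma adjusted p = 0.101) or replicate 2 (limma adjusted p = 0.0541), with no filter on low values (limma adjusted p = 0.0789), or with a robust prior (limma adjusted p = 0.134). Over 16 alternatives its limma adjusted p ranged from 0.00126 to 0.134. In the GENCODE vM21 transcripts 88.0% of the Gapdh transcript has a match of at least 98% identity in 41 other genes, 38 of them pseudogenes. Another 4 members have such a near-identical match over at least 50% of the transcript, Eno1 over 85.6%, Ldhb over 76.8%, Pgk1 over 68.8% and Pkm over 65.5%. Reads of these genes may be split with their copies or dropped, since the handling of reads with several matches is not given in the sources used here, and their levels are uncertain. Without the 5 genes matched over at least 50% of the transcript, 15 of 26 tested members were higher (57.7%) and 5 lower (19.2%). Of all tested genes 37.8% were higher and 36.1% lower. In either direction 76.9% of the 26 passed, beside 73.9% of all tested genes. Pgam1 and Gpi1, matched over 43.1% and 36.3% by 1 pseudogene each, stayed among the 15, and their reads may be split too. Slc2a1, Hk1, Gpi1, Pfkp, Pfkfb2, G6pdx and Rpe overlap another annotated gene whose transcripts match theirs over at least 100 bases. Since strand use is not given, reads in the shared stretches cannot be told apart. Overlaps without such a match were not searched for, and Tpi1 also overlaps another gene of the table, Spsb2.

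**Figure D2:**
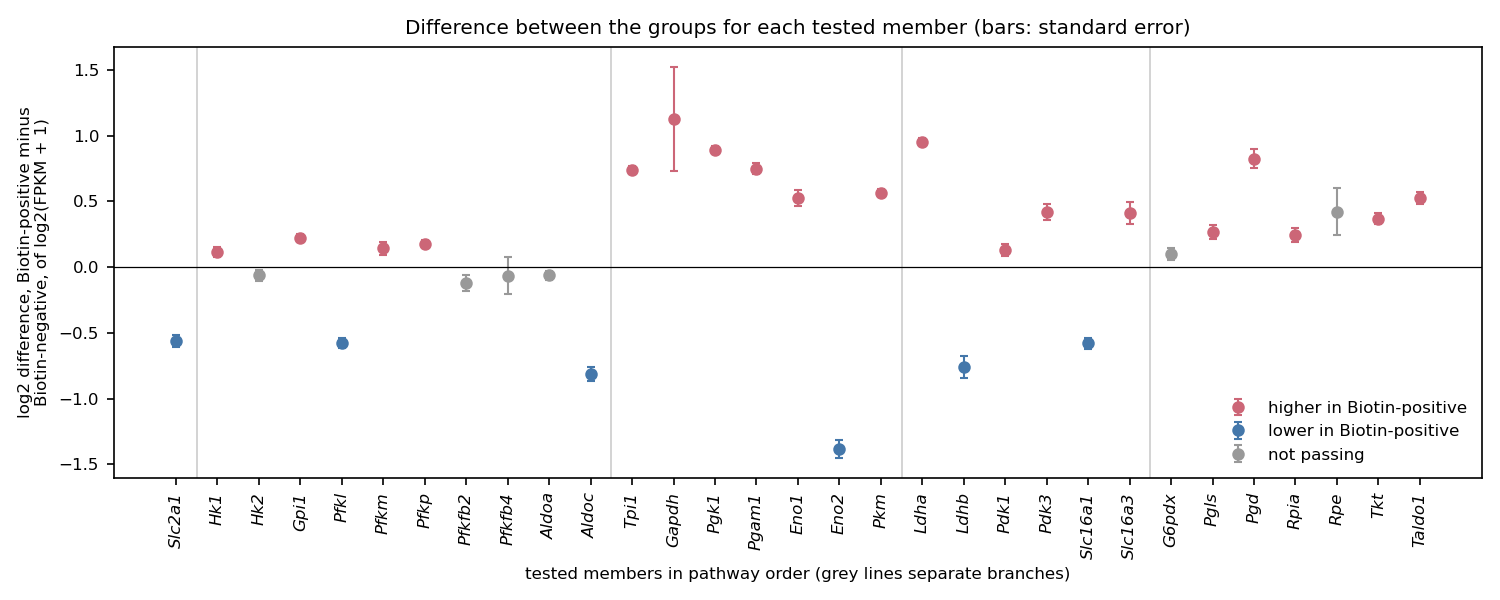
Log2 difference between the groups (Biotin-positive minus Biotin-negative, on the log2(FPKM + 1) scale) for the 31 tested genes in pathway order, with bars for the standard error and colours for the limma call. The points before Tpi1 lie on both sides of 0, between -0.81 and 0.22, and change to 0.53 or more for each of the lower glycolytic genes except Eno2 at -1.38.

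Lactate dehydrogenase turns pyruvate into lactate and back, and its subunit genes moved apart. Ldha, whose subunit favours lactate production (ENSMUSG00000063229, chromosome 7, 46841475 to 46855627 on GRCm38), stood at 403, 388 and 402 FPKM in Biotin-negative and at 779.7, 776 and 752 FPKM in Biotin-positive libraries. The ratio of 1.94 came with a log2 difference of 0.95 (SE 0.0298, limma adjusted p = 2.96e-08), and Ldha was the most abundant of the 33 transcripts in each Biotin-positive library. Ldhb, whose subunit favours lactate use, stood at 6.98, 7.01 and 6.94 against 3.18, 3.70 and 4.30 FPKM and fell (log2 difference -0.76 with SE 0.0843, limma adjusted p = 4.84e-05). Both genes had groups without overlap.

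The lactate transporter genes moved in opposite directions. Slc16a1 encodes MCT1, a proton-coupled carrier that moves lactate either way (ENSMUSG00000032902, chromosome 3, 104638668 to 104658462 on GRCm38). It stood at 53.7, 58.4 and 54.1 FPKM in Biotin-negative and at 37.8, 36.9 and 35.4 FPKM in Biotin-positive libraries and fell without overlap (log2 difference -0.58 with SE 0.0426, limma adjusted p = 3.62e-06). Slc16a3, the gene of MCT4, known as the exporter of strongly glycolytic cells, stood at 1.09, 1.44 and 1.21 against 2.01, 1.76 and 2.20 FPKM. It rose (log2 difference 0.41 with SE 0.0839, limma adjusted p = 0.00202), from a level at which the added 1 FPKM weighs, so that with a pseudocount of 0.1 the log2 difference was 0.64. The sum of both transporters stood at 56.6 ± 2.76 and 38.7 ± 1.08 FPKM. Pyruvate dehydrogenase kinases block the entry of pyruvate into the citric acid cycle. Pdk3 rose from 11.3 ± 0.565 to 15.5 ± 1.09 FPKM (log2 difference 0.42 with SE 0.0607, limma adjusted p = 0.000253). Pdk1 stood at 8.60 ± 0.0895 and 9.48 ± 0.238 FPKM (log2 difference 0.13, limma adjusted p = 0.0309), and the p was 0.194 with equal sums per library. Pdk1 also did not pass without Biotin-negative replicate 1 or 3 or Biotin-positive replicate 1 or 3 (limma adjusted p of 0.0577, 0.0825, 0.0681 and 0.0951).

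The genes of the pentose phosphate pathway were higher or did not pass, and none fell. Of the 7 genes 5 rose (71.4%), with a median log2 difference of 0.37 over all 7. Over all tested genes 73.9% passed in either direction, 37.8% higher and 36.1% lower. G6pdx, the X-linked dehydrogenase of the committed oxidative step, stood at 38.6, 36.7 and 36.0 against 41.4, 40.2 and 37.9 FPKM, with overlapping groups, and did not pass (limma adjusted p = 0.0691), though it did without Biotin-negative replicate 1 (limma adjusted p = 0.0402) or Biotin-positive replicate 3 (limma adjusted p = 0.026). Pgls, the lactonase that follows, rose from 58.9 ± 1.72 to 71.2 ± 5.43 FPKM (log2 difference 0.27, limma adjusted p = 0.00195), and its log2 difference was 0.16 under quantile normalization. Pgd, which makes the further NADPH of the oxidative arm (ENSMUSG00000028961, chromosome 4, 149149991 to 149166771 on GRCm38), stood at 13.8, 12.9 and 15.4 against 26.5, 26.8 and 23.6 FPKM. Its log2 difference of 0.82 (SE 0.0721, limma adjusted p = 1.09e-05) was the largest of this pathway. The groups of Pgd did not overlap, and its ratio was 1.82.

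In the non-oxidative arm Taldo1, transaldolase, stood at 67.6, 66.4 and 65.8 against 103, 94.9 and 91.1 FPKM (log2 difference 0.52 with SE 0.0446, limma adjusted p = 9.16e-06). Tkt, transketolase, rose from 39.7 ± 0.686 to 51.5 ± 2.51 FPKM (log2 difference 0.37, limma adjusted p = 4.61e-05). Rpia, the isomerase that yields ribose 5-phosphate, rose from 9.74 ± 0.631 to 11.7 ± 0.249 FPKM (log2 difference 0.24, limma adjusted p = 0.00329). Rpe, the epimerase of the same branch point, stood at 4.42, 7.80 and 7.80 against 8.58, 10.2 and 8.40 FPKM. Biotin-negative replicate 1 was the lowest library. The groups did not overlap, but Rpe did not pass (log2 difference 0.42 with SE 0.177, limma adjusted p = 0.058). Without Biotin-negative replicate 1 the log2 difference was 0.19 (limma adjusted p = 0.0767). Among the genes of this arm that passed, Taldo1 and Tkt had larger log2 differences than Rpia. That of Rpe, which did not pass, lay between those of Taldo1 and Tkt.

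**Figure D3:**
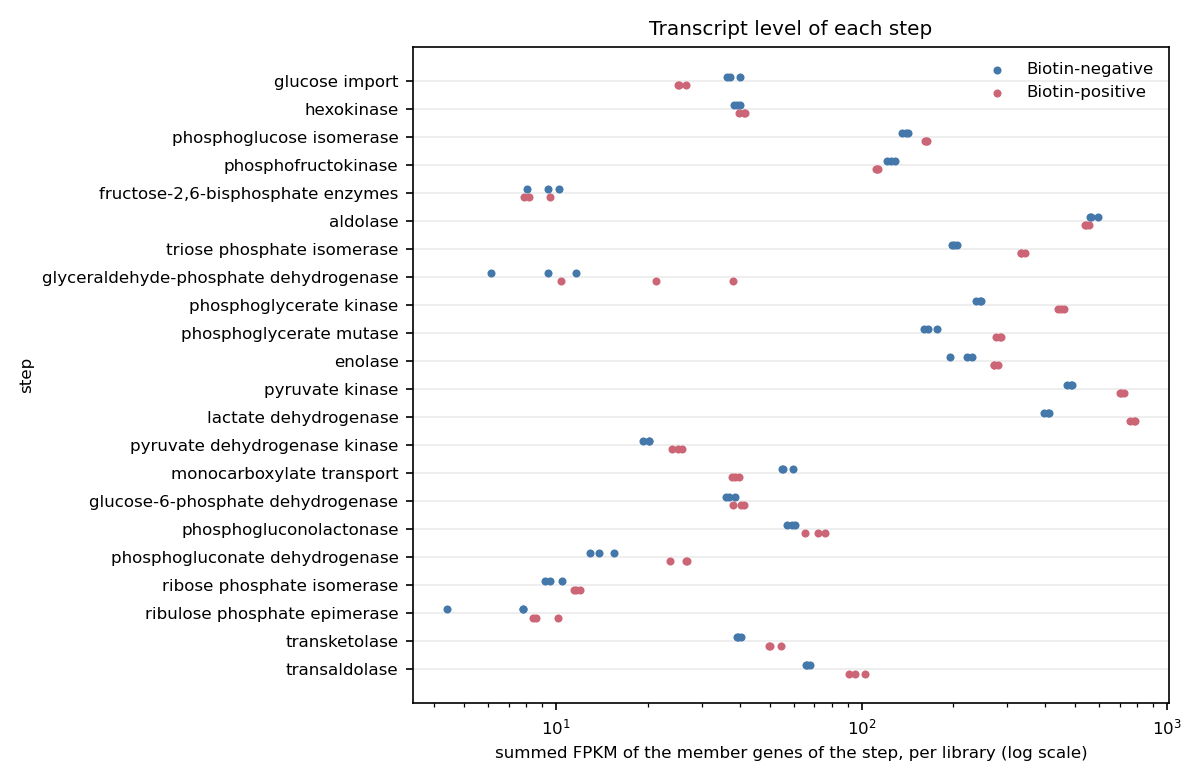
Summed FPKM of the member genes of each step in each library, on a log axis, with steps from glucose import at the top to transaldolase at the bottom, blue for Biotin-negative and red for Biotin-positive. Red points lie left of the blue ones for glucose import, phosphofructokinase, aldolase and monocarboxylate transport, and right of them for the steps from triose phosphate isomerase to pyruvate dehydrogenase kinase apart from the overlap at glyceraldehyde-phosphate dehydrogenase.

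Summed by step, the member genes of aldolase, pyruvate kinase and lactate dehydrogenase had the 3 highest levels in both groups, in opposite order. Lactate dehydrogenase went from 404 ± 8.47 to 773 ± 14.7 FPKM and pyruvate kinase from 480.3 ± 10.1 to 711 ± 10.8 FPKM, while aldolase stood at 573 ± 19.2 and 545 ± 9.50 FPKM. Aldolase was therefore the highest step in each Biotin-negative library and lactate dehydrogenase the highest in each Biotin-positive one. Eno1 and Eno2 together stood at 215 ± 18.3 and 274 ± 5.14 FPKM, a ratio of 1.27 beside 1.44 for Eno1 alone.

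Shares within a step were taken over the member genes alone, so isozymes outside the 33 genes are not in the sums. The mix of isozymes shifted toward the form that was already the more abundant for lactate dehydrogenase, aldolase, enolase, hexokinase and pyruvate dehydrogenase kinase. Ldhb and Eno1 have near-identical copies, with Eno1b among those of Eno1, so the shares for lactate dehydrogenase and enolase are uncertain. Eno1 made up 84.0, 85.8 and 83.6% of the summed FPKM of Eno1 and Eno2 in Biotin-negative libraries and 95.2, 95.7 and 95.8% in Biotin-positive ones. Over all 4 enolase genes, with Eno1b and Eno3 added, Eno1 made up 63.2 ± 3.37% and 68.6 ± 0.0849%, and Eno2 11.6 ± 0.874% and 3.19 ± 0.239%, in each case without overlap. Ldha made up 98.3 ± 0.0431% and 99.5 ± 0.0817% of its step, Aldoa 98.4 ± 0.0845% and 99.1 ± 0.0442%, and Hk1 65.2 ± 1.03% and 68.1 ± 0.417%. For phosphofructokinase the lead changed hands, with Pfkl at 50.5, 49.0 and 49.0% against 36.6, 36.5 and 36.6%, and Pfkp at 43.3 ± 0.519% against 54.5 ± 0.0901%. For the transporters the minor form gained, Slc16a3 from 2.19 ± 0.212 to 5.15 ± 0.659% and Slc2a3 from 0 to 1.79 ± 0.131%. The share of Slc16a3 reflects the fall of Slc16a1 as well as its own rise. Slc2a3, at 0.460 FPKM in Biotin-positive cells, was too low to be tested. Pdk3 gained on Pdk1, from 56.8 ± 1.47 to 62.0 ± 2.17%. The groups did not overlap in any of these shares, and they overlapped in each share of the PFKFB genes. The shares are descriptions, since an exact permutation test of 3 against 3 libraries cannot go below p = 0.1.

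**Figure D4:**
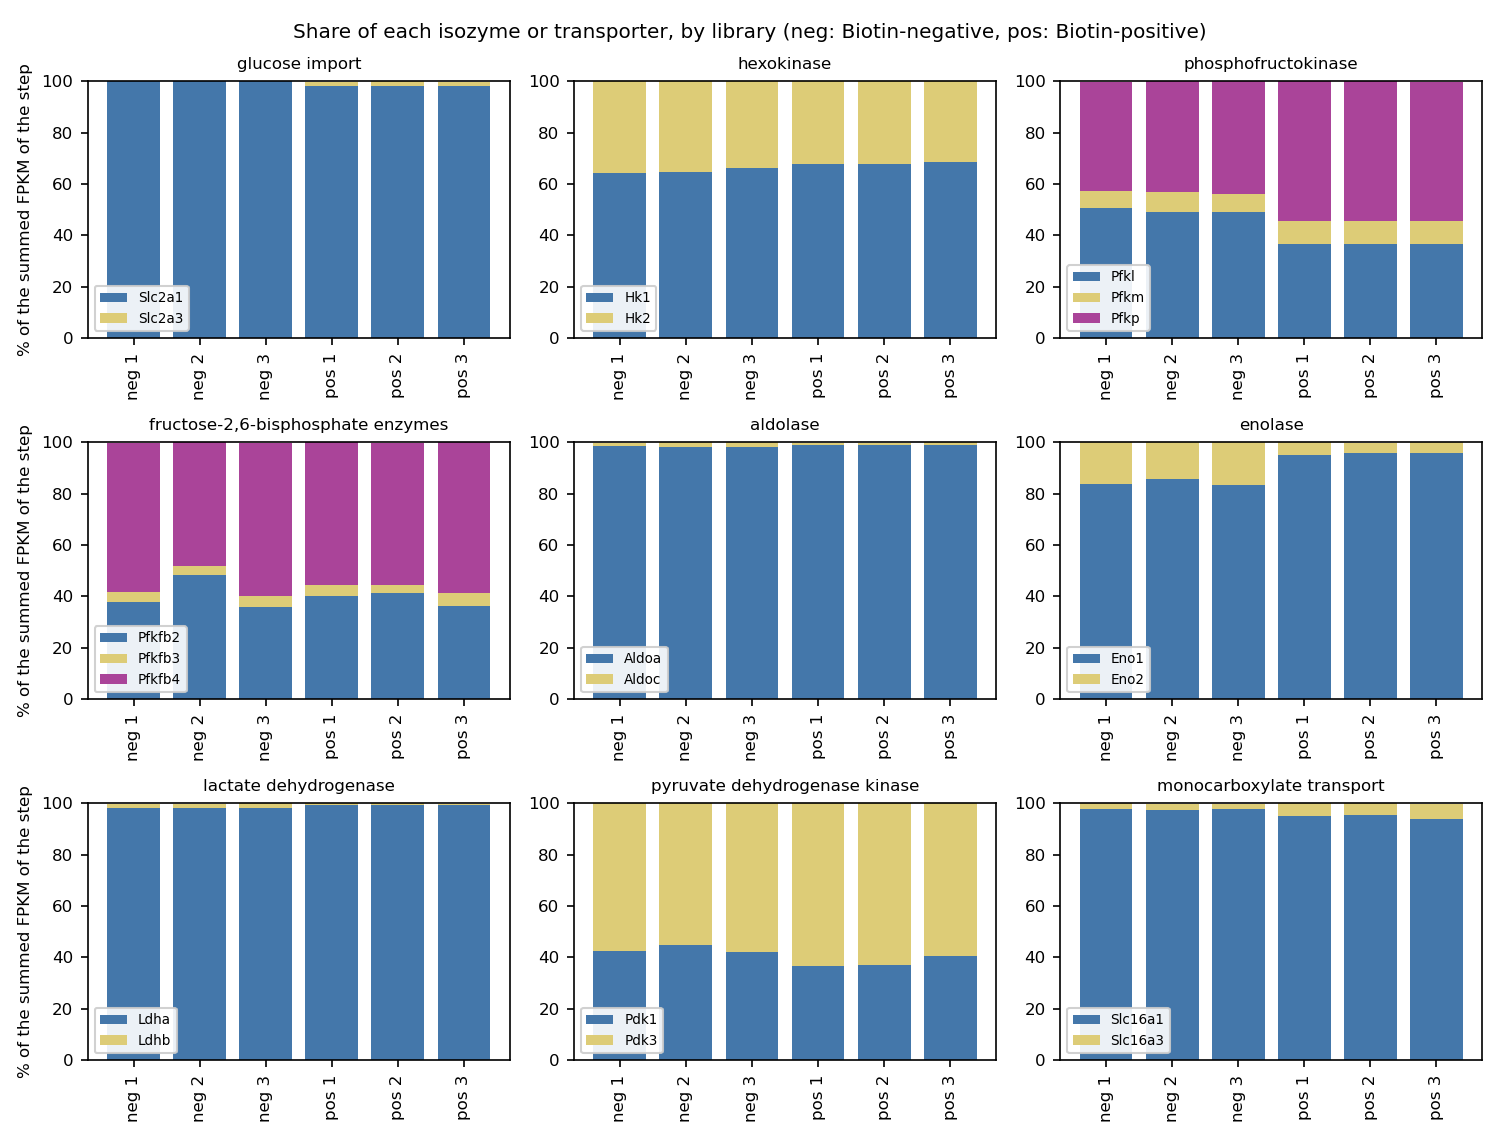
Share of each gene in the summed FPKM of the member genes of its step, in percent, with 1 stacked bar per library and 1 panel for each of the 9 steps that have several member genes. Pfkp grows from 43.3 to 54.5% of phosphofructokinase and Eno2 shrinks from 15.5 to 4.44% of the sum of Eno1 and Eno2, while the PFKFB panel shows no separation of the groups.

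Glycolytic genes are textbook targets of the hypoxia-inducible factors, whose response element holds the letters ACGTG or GCGTG. Promoter windows from 250 bases before to 50 bases after each RefSeq start site (GRCm38.p6) were searched for both words on either strand. At least 1 match lay in 38 of 48 windows of 32 members (79.2%), beside 43.8% of all 32851 windows, while the median number of CG pairs was 20 in the members' windows and 7 in all windows. Matches lay in 22 of 29 windows of members that rose (75.9%) and in 6 of 7 windows of members that fell (85.7%). The palindrome CACGTG, the word bound by MYC and by the glucose-sensing MLX factors, overlaps ACGTG on both strands and lay in 5 of the 48 windows (10.4%), beside 7.15% of all. Several windows of 1 gene overlap, and a match is a description of letters, not of binding. The windows of Ldha and Pgk1, which rose, and of Slc16a1 and Slc2a1, which fell, are shown because they carry these words on both sides of the comparison. They are written 5′ to 3′ on the gene's strand, with the words ACGTG and GCGTG of either strand in capitals.
Ldha, chr7:46845554-46845853, plus strand: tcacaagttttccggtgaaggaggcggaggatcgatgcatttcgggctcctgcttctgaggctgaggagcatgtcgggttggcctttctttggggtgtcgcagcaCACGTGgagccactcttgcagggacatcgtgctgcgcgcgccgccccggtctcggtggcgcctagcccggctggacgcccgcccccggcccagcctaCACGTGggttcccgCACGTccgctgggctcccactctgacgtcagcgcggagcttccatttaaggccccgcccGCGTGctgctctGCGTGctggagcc
Pgk1, chrX:106186850-106187149, plus strand: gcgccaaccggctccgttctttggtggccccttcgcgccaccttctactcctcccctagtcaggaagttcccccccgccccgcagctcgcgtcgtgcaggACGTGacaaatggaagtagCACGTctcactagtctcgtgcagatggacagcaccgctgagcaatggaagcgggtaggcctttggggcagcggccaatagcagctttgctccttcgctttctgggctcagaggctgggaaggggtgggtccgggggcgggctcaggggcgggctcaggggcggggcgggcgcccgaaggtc
Slc16a1, chr3:104638414-104638713, plus strand: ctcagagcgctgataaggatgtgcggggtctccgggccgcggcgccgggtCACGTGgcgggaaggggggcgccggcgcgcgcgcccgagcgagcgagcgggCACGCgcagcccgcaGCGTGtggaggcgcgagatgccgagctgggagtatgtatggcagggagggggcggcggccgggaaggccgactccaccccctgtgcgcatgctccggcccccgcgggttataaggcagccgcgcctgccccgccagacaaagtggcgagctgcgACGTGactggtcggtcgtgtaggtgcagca
Slc2a1, chr4:119108495-119108794, plus strand: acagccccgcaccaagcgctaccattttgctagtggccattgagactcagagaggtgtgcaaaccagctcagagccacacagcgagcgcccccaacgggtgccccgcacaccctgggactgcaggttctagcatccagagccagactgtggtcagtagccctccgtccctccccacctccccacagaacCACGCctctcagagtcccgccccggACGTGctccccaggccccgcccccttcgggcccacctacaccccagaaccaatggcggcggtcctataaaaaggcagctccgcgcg
The Ldha window, 1 of 2 in the table, holds 7 matches, of which 4 come from 2 palindromes. The Slc16a1 window holds 5, and those of Pgk1 and Slc2a1 hold 2 each. The windows of Eno2 and Tpi1, neighbours that moved in opposite directions, hold none.

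Beside the 33 genes, 85 other genes of glucose use were listed by pathway. Of the 58 that reached testing, 19 rose (32.8%), 28 fell (48.3%) and 11 did not pass, with a median log2 difference of -0.08. Over all tested genes 37.8% rose and 36.1% fell. Genes named here are the 3 most abundant of each list. Among isozymes and regulators of glycolysis 6 rose (66.7%) and 3 fell (33.3%) of 9. The retrogene Eno1b, a near-identical copy of Eno1, rose from 58.4 ± 1.64 to 80.9 ± 0.586 FPKM, and the muscle enolase Eno3 from 13.5 ± 6.17 to 26.7 ± 2.15 FPKM, while the ADP-dependent glucokinase Adpgk fell from 23.3 ± 2.65 to 18.7 ± 0.542 FPKM (limma adjusted p = 2.06e-06, 0.00996 and 0.00618). The lactate carrier chaperone basigin, Bsg, did not pass, at 481 ± 16.4 and 461 ± 6.30 FPKM (limma adjusted p = 0.122). The mitochondrial pyruvate carrier subunit Mpc1 did not pass, at 23.2 and 23.6 FPKM, and Mpc2 rose from 9.79 to 11.7 FPKM.

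Of 10 genes of the pyruvate dehydrogenase complex and its regulators 5 rose (50%), 3 fell (30%) and 2 did not pass, beside 37.8% and 36.1% of all tested genes. The 5 that rose include Pdk4, an inhibiting kinase, from 2.29 to 5.53 FPKM (limma adjusted p = 6.2e-07), and the 3 that fell include Pdk2, another such kinase, from 5.44 to 3.27 FPKM (limma adjusted p = 5.41e-05), both named after their values were seen. Pdha1, the catalytic alpha subunit that the PDK enzymes phosphorylate, rose from 57.0 ± 0.266 to 68.1 ± 2.15 FPKM, and Dld from 59.6 ± 2.94 to 70.4 ± 2.56 FPKM (limma adjusted p = 0.000117 and 0.00114), while Pdhb did not pass, at 61.8 and 60.9 FPKM. The hexosamine, polyol and fructose list held 5 falls (71.4%), 0 rises and 2 genes that did not pass. In it the aldose reductase Akr1b3 fell from 119 ± 3.54 to 105 ± 2.70 FPKM. Uap1 fell from 29.3 to 25.1 FPKM and Gnpnat1 from 23.9 to 15.6 FPKM. The glycogen list held 2 rises (22.2%) and 5 falls (55.6%) of 9. The phosphorylase Pygl fell from 30.4 ± 0.712 to 22.5 ± 0.567 FPKM and Ugp2 from 35.0 to 28.8 FPKM, while Gys1 (27.4 and 27.7 FPKM) did not pass. The list of gluconeogenesis and glycerol phosphate held 2 rises (33.3%) and 3 falls (50%) of 6. The mitochondrial carboxykinase Pck2 fell from 62.1 ± 5.49 to 39.8 ± 0.304 FPKM and G6pc3 from 26.4 to 21.9 FPKM. Gpd1l (15.7 and 15.4 FPKM) did not pass. Of the neighbours of the pentose phosphate pathway 1 rose (20%) and 3 fell (60%) of 5. The ribose phosphate pyrophosphokinase Prps2 rose from 10.3 to 14.0 FPKM, Prps1 (45.7 and 42.9 FPKM) did not pass, and Prps1l3 fell from 23.2 to 19.8 FPKM. Among sugar transporters Slc2a9, which carries urate and hexoses, fell from 5.16 to 2.57 FPKM, and Slc2a8 (7.92 and 7.42 FPKM) did not pass.

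Regulators of glucose use showed the largest change of these lists. Txnip, a thioredoxin-binding arrestin that removes GLUT1 from the cell surface and is itself induced by glucose, stood at 6.29, 5.58 and 6.59 FPKM in Biotin-negative and at 77.9, 77.4 and 75.1 FPKM in Biotin-positive libraries, without overlap (log2 difference 3.45 with SE 0.0548, limma adjusted p = 1.2e-09). Hif1a, the oxygen-regulated subunit of the hypoxia-inducible factor, fell from 60.2 ± 6.64 to 43.7 ± 0.852 FPKM (limma adjusted p = 0.000349), and Myc from 184 ± 6.15 to 148 ± 2.20 FPKM (limma adjusted p = 2.68e-05). Hif1a protein is set mainly by its degradation, which transcript levels do not show. Of the 7 tested regulators 2 rose (28.6%) and 5 fell (71.4%), beside 37.8% and 36.1% of all tested genes. Arrdc4, the relative of Txnip, was the other that rose, from 1.26 to 4.20 FPKM, and is named after its values were seen.

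**Figure D5:**
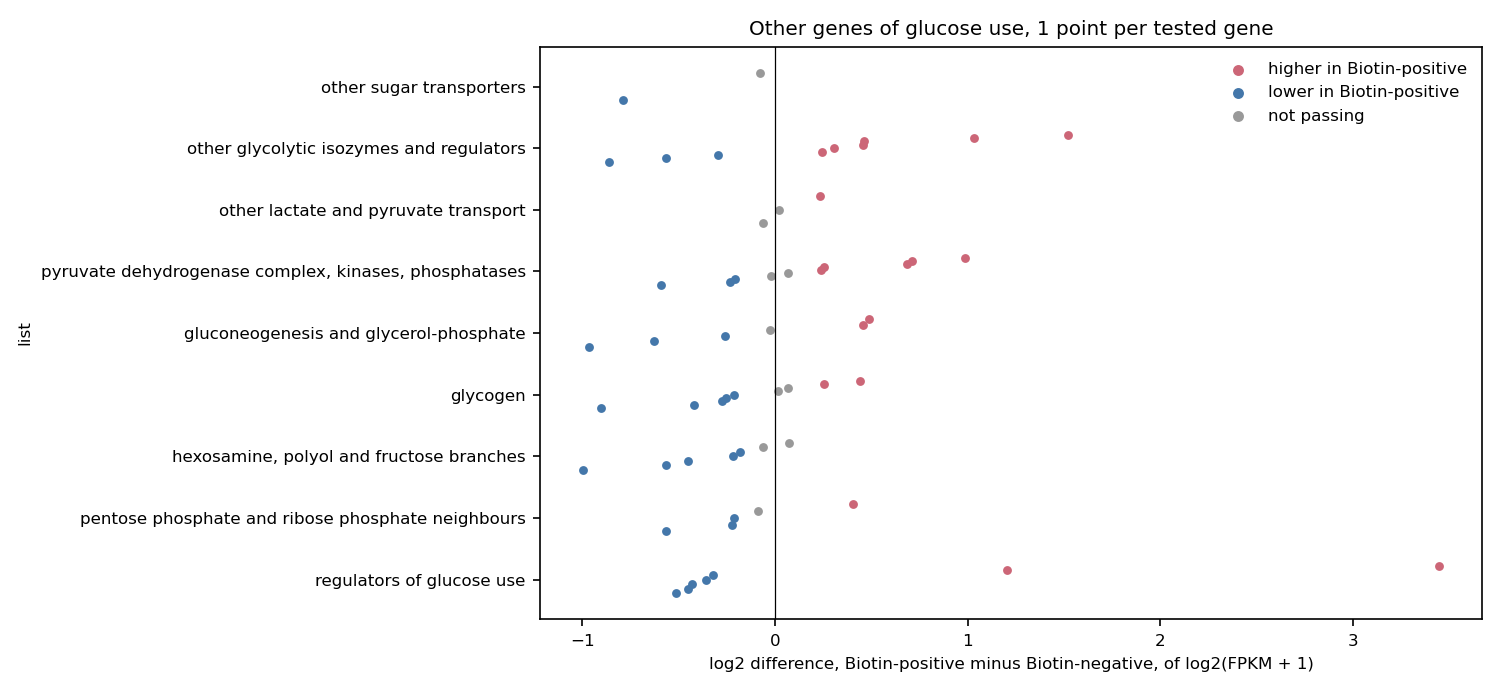
Log2 difference between the groups (Biotin-positive minus Biotin-negative, on the log2(FPKM + 1) scale) for the 58 tested genes of 9 other lists of glucose use, 1 point per gene, coloured by the limma call. Txnip stands apart at 3.45 in the list of regulators. The hexosamine, polyol and fructose list has 5 falls (71.4%) and 0 rises, beside 36.1% and 37.8% of all tested genes.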

How the data were processed

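RNA of 3 Biotin-negative and 3 Biotin-positive L929 libraries was sequenced on an Illumina NovaSeq. Cutadapt 1.9.1, HISAT2 2.2.1, HTSeq 0.6.1 and the build GRCm39 are named, without their roles, per the submitters' processing notes. The deposited table gives FPKM values, scaled by the authors for gene length and library size. The program behind them, the denominator, strand use and the handling of reads with several matches are not given in the sources used here. The gene positions in the deposited table equal those of GENCODE vM21 on GRCm38 for 21616 of 21816 shared genes and for all 33 members, so positions are given on GRCm38. Log2 ratios of genes under 0.3 FPKM, rounded to 3 decimals, did not gather at a few values, with at most 8 of 1436 to 1832 genes at 1 ratio in any of 15 library pairs, so whole reads were not recovered and no count test was run.

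The 11029 genes that reached 1 FPKM in 3 or more libraries were tested on the log2(FPKM + 1) scale by limma 3.58.1 under R 4.3.3, with a two-sided moderated test whose prior followed the mean level. The procedure was also run on simulated data with independent noise and far fewer changed genes than passed here. That run therefore does not give the rate of false calls in these data. The members and the gene lists were chosen with earlier results of these data known. All members are named, and from each other list the 3 tested genes with the highest mean over the 6 libraries. Near-identical copies were sought with blastn 2.17.0 between GENCODE vM21 transcripts, joining alignments of at least 100 bases and 98% identity to other genes that do not overlap the member. Tables and figures used Python 3.11.15, pandas 2.3.3 and matplotlib 3.10.9. Alternatives were other pseudocounts, filters, scalings and priors, the replicate number as a block, leaving out each library, and a log2 threshold of 1. Leaving out members with near-identical copies was added after the data were seen.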

Additional observations from a re-analysis of the deposited data

How the results depend on the processing

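With a log2 difference of at least 1 added to the threshold, 1 member was higher and 1 lower, 4 other glucose genes were higher and 0 lower, and 583 of all tested genes were higher and 376 lower. Under the other alternatives the members counted 15 to 20 higher and 5 to 9 lower, where fewer genes (no near-identical copies) gave the lowest counts and equal sums per library the 9. With equal sums all tested genes shifted too, to 3688 higher and 4502 lower, from 4168 and 3985 in the main fit. Leaving out each library in turn gave 16 to 18 members higher and 6 lower. Over all tested genes it gave 3883 to 4046 higher and 3739 to 3857 lower. Of 494 refits of single members 455 kept direction and side of the threshold, 26 no longer passed (Hk1, Pfkm, Pfkp, Pdk1 and Gapdh) and 12 newly passed (Hk2, Pfkfb2, Aldoa, G6pdx and Rpe). Leaving out each library in turn, the log2 difference of Pfkfb4, which did not pass, ranged from -0.23 to 0.0509, and it changed sign without Biotin-negative replicate 3. Rpe passed without Biotin-negative replicate 2 (limma adjusted p = 0.0323) and replicate 3 (limma adjusted p = 0.0299), where its log2 difference was 0.54 in both cases, and had a log2 difference of 0.19 without replicate 1 (limma adjusted p = 0.0767), beside 0.42 with all libraries. Under quantile normalization the difference in share between the groups moved to -1.59 percentage points for Slc2a1, 0.589 for Aldoa and 1.13 for Ldha, from -1.79, 0.711 and 1.24. The cause of these changes was not tested.

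Correlations of same-numbered deviations from the group means were 0.0371, 0.0120 and 0.0143 over 11029 genes. Those of differently numbered libraries ranged from -0.0491 to 0.0341. These values cannot show whether the replicate numbers pair the libraries, since a small shared part could lie below the spread among libraries. With the replicate number as a block 19 members were higher and 6 lower, beside 4113 higher and 3927 lower of all 11029 tested genes. Under the block Pfkm (limma adjusted p = 0.052) and Pdk1 (limma adjusted p = 0.056) no longer passed, and 2 others newly did, G6pdx (limma adjusted p = 0.0324) and Rpe (limma adjusted p = 0.0296). The depth is unknown, so no counting error can be given for any value.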
